A study of Mus musculus with 16 samples.

Results

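Six2, Six3, Six4, Six5 and Six6, the genes of homeobox transcription factors related to sine oculis of the fly, were examined for called peaks of H3K4me3, H3K27me3 and Suz12 in mouse embryonic stem cells (ESCs) that self-renewed on either LIF or an activated Myc protein. The 5 genes were taken by name, and each was read in all 6 deposited peak lists in the 2500 bp before and the 2500 bp after its start site (the start-site window) and over its body. They were set beside all 26180 genes with a curated RefSeq start site in the mouse genome build GRCm38. Six2 (chr17:85684268-85688254, minus strand) and Six3 (chr17:85620834-85626191, plus strand) lie side by side on chromosome 17 and have 2 exons each. Six6 (chr12:72939882-72944899, plus strand, 2 exons) and Six4 (chr12:73099609-73113425, minus strand) share chromosome 12, with 173543 bp between their start sites. Six4 was the only member with 2 curated start sites, 180 bp apart, and its joined window measured 5181 bp against 5001 bp for the others. Six5 (chr7:19094544-19098345, plus strand, 3 exons) begins 722 bp after the end of Dmpk, the kinase gene whose repeat expansion causes myotonic dystrophy in humans.

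Proteins of this family bind DNA through a homeodomain and a second conserved domain beside it, and many of them act together with Eya coactivators or Dach corepressors. Six3 and Six6 are required for the forebrain, the eye and the pituitary, Six2 keeps kidney progenitors undifferentiated, and Six4 acts in muscle and sensory development. H3K4me3 marks the start sites of active and poised genes. Polycomb repressive complex 2, of which Suz12 is a core subunit, deposits H3K27me3 on silent developmental genes, and a start site that carries H3K4me3 together with Polycomb marks is called bivalent.

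All cells carried MycER, a mutant Myc protein fused to a hormone-binding domain that 4-hydroxytamoxifen (OHT) activates, in R1 mouse ESCs. LIF-ESCs received 100 units per ml of LIF without OHT. Myc-ESCs received 50 nM OHT without LIF. The line is a clone, so every library shares its origin. ChIP-sequencing was done with antibodies against H3K4me3, H3K27me3 and Suz12, and 16 libraries are labelled, of which 4 are inputs and the others come as 2 per culture and antibody. Each culture and antibody was represented by 1 list of peaks, which holds no read counts. The depth of the libraries is unknown, replicate error could not be computed for any value, and no difference between cultures was tested. At the level of peaks, the start sites of 6 of 6 pluripotency genes (Pou5f1, Sox2, Nanog, Klf4, Esrrb and Zfp42) carried H3K4me3 in both cultures. Of all genes, 62.2% carried it in LIF-ESCs and 63.3% in Myc-ESCs. Esrrb also carried Suz12 in both cultures and H3K27me3 in Myc-ESCs, and Klf4 carried Suz12 in Myc-ESCs. The lists differed in length. From LIF-ESCs to Myc-ESCs the number of peaks went from 32469 to 30345 for H3K4me3, from 11305 to 13907 for Suz12, and from 3120 to 16717 for H3K27me3.

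The sequences that the peaks turned on were read first. The 250 bases before the start sites of Six2 and Six3 are shown because these neighbours carried the same Polycomb marks in their start-site windows but have very unlike promoters. Every CG dinucleotide is in capitals, and the strand is that of the gene. The sequences are from RefSeq (GRCm38.p6), and promoters were matched for 5 of the 5 genes.
Six2, chr17:85688255-85688504, minus strand: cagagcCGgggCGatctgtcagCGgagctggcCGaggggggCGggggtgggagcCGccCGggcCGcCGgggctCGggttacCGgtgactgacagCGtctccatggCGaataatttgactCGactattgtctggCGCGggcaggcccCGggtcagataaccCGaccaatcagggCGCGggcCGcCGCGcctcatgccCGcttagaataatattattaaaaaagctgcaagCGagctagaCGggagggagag
Six3, chr17:85620584-85620833, plus strand: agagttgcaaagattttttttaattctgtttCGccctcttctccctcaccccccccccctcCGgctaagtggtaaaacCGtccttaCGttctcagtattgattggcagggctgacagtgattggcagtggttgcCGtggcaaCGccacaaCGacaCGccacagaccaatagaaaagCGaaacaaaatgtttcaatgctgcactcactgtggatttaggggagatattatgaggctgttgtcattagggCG
The Six2 promoter held 26 CG dinucleotides in 250 bases and the Six3 promoter held 10, against a median of 6 over 32851 promoters. Only 9.59% of promoters held as many as Six2, and 37.8% held as many as Six3. The corresponding numbers were 17 for Six6, 13 for Six5, and 15 and 13 for the start sites of Six4. Of the 250 bases, the Six2 promoter had 250 under H3K4me3 in either culture, but 0 under Suz12 in LIF-ESCs and 7 in Myc-ESCs. The Six3 promoter was the reverse, with 0 bases under H3K4me3 in either culture, and 212 under Suz12 in LIF-ESCs and 250 in Myc-ESCs.

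Peaks that were called in Myc-ESCs only are also shown. These are the highest-scoring H3K27me3 peak in the window of Six2 (intron 1) and of Six3 (upstream of the start site) outside exons, and the highest-scoring Suz12 peak outside exons in the window of Six5 (intron 1, the first 300 of 322 bases).
Six2 H3K27me3, chr17:85686418-85686628, minus strand: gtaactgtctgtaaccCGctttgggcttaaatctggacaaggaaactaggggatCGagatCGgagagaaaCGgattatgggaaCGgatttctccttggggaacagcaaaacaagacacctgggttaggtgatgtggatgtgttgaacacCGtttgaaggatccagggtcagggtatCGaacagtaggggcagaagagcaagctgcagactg
Six3 H3K27me3, chr17:85620312-85620525, plus strand: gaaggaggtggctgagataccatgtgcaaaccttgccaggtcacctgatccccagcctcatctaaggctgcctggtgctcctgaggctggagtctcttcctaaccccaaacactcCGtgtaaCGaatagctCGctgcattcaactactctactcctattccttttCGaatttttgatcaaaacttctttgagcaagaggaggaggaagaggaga
Six5 Suz12, chr7:19095532-19095831, plus strand: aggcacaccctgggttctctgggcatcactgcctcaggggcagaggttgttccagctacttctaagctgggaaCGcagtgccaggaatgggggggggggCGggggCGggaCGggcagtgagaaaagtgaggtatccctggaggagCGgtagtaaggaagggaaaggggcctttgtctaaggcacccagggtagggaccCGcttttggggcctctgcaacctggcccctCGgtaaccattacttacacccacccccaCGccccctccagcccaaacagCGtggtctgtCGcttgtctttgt
The Six2 and Six3 H3K27me3 peaks held 7 and 4 CG dinucleotides, or 3.32 and 1.87 per 100 bp. All bases of the Myc-ESC H3K27me3 list held 1.38 per 100 bp. Both peaks lay under Suz12 in Myc-ESCs, and the Suz12 bases around these genes held more CG dinucleotides than the peaks. Within 10000 bp of the start site these Suz12 bases held 3.8 per 100 bp at Six2 and 3.61 at Six3. The Six5 stretch held 10, or 3.33 per 100 bp, against 4.17 per 100 bp over the Myc-ESC Suz12 list. All Suz12 bases of Six5 together, exons included, held 9.46 per 100 bp. The E-box CACGTG, the preferred site of Myc with Max, reads the same on both strands. It was found in none of the members' promoters or start-site windows, while 6.02% of all promoters and 48.8% of the 5001 bp windows of all genes held it.

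The members fell into 3 chromatin states. Six2, Six3 and Six6 carried Suz12 in both cultures, Six5 carried H3K4me3 in LIF-ESCs and also Suz12 in Myc-ESCs, and Six4 carried H3K4me3 alone. H3K4me3 was called at 4 of the 5 genes in LIF-ESCs and at 5 in Myc-ESCs, where 62.2% and 63.3% of all genes had a peak. Suz12 was called at 3 genes in LIF-ESCs and at 4 in Myc-ESCs, against 12.1% and 14.6% of all genes. H3K27me3 was called at 1 gene in LIF-ESCs, Six6, and at 3 in Myc-ESCs, against 3.82% and 10.7% of all genes. Every change between the lists was a peak called in Myc-ESCs only. A peak in LIF-ESCs only was found at 0 of the 5 genes for any antibody. H3K4me3 was called in Myc-ESCs only at Six3 (2.35% of all genes), Suz12 at Six5 (3.82%), and H3K27me3 at Six2 and Six3 (7.65%). With 5 genes, none of these counts says whether the family stands apart from other genes.

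**Figure D1:**
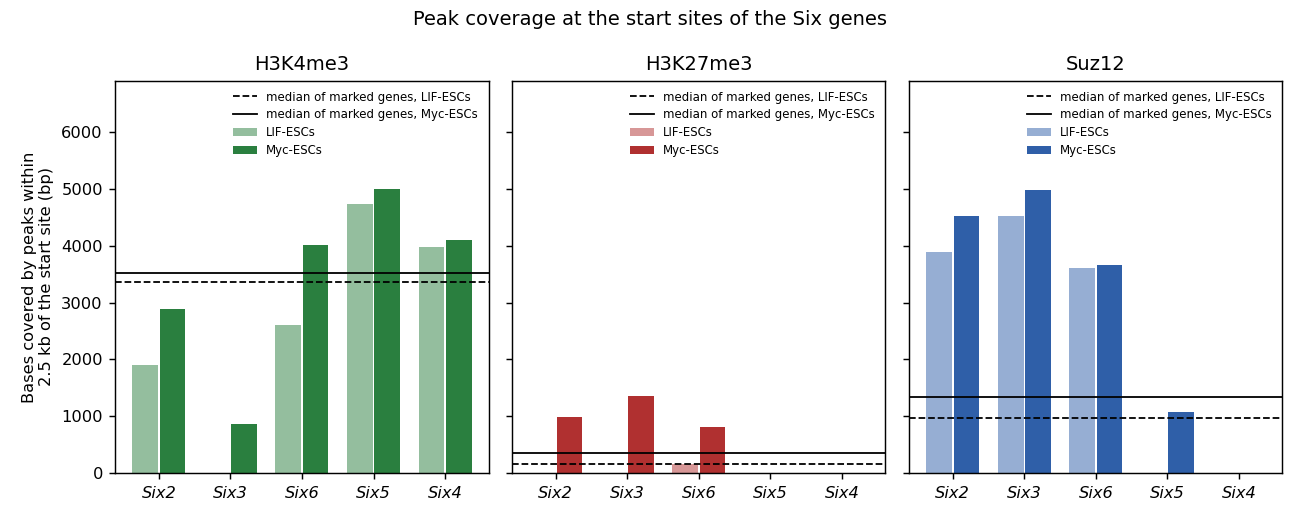
Bases (bp) covered by peaks within 2500 bp of the start site of each of the 5 genes, by antibody, in LIF-ESCs (pale bars) and Myc-ESCs (full bars), with lines at the median over all genes that have a peak in the list (dashed, LIF-ESCs; solid, Myc-ESCs). Suz12 covered 3607 to 4974 bp at Six2, Six3 and Six6 in either culture, above both medians, while H3K27me3 covered at most 152 bp in LIF-ESCs.

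Six2, the kidney progenitor gene, was bivalent in both cultures by H3K4me3 and Suz12. H3K4me3 covered 1907 bp of its window in LIF-ESCs against 2886 bp in Myc-ESCs, 1.51 times as much. The median difference between the cultures over genes with H3K4me3 was 150 bp, and 8.41% of those genes differed by at least as much in the same direction. Its H3K4me3 coverage was nevertheless lower than that of most marked genes. At least as many bases were covered at 89.6% of the LIF-ESC marked genes and 72.9% of the Myc-ESC ones. Suz12 covered 3892 bp in LIF-ESCs against 4516 bp in Myc-ESCs, or 77.8% and 90.3% of the window. That put Six2 among the broadly covered genes, since 8.46% and 7.56% of the genes with Suz12 had as much. Such shares of genes, here and for the other members, count covered bases. Genes with several start sites can have longer windows and can reach more bases for that reason. H3K27me3 covered 0 bp in LIF-ESCs and 983 bp in 6 separate peaks in Myc-ESCs, and 17.6% of marked genes had as much.

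The Suz12 peaks at Six2 stopped short of the start site on either side. In LIF-ESCs they ended 334 bp before it and resumed 245 bp after it, and in Myc-ESCs the gap ran from 244 bp before to 230 bp after. The H3K4me3 peak spanned this gap in both cultures. With peaks joined over gaps of up to 1000 bp, the Suz12 domain of Six2 was 9804 bp long in LIF-ESCs against 11670 bp in Myc-ESCs, and it extended past both ends of the gene. Suz12 covered 86.1% and 93.6% of the 3987 bp gene body, and H3K27me3 covered 0% and 19.3%. The Myc-ESC H3K27me3 over the body fell from 768 to 274 bp with only scores of at least 100. Within 10000 bp of the start site, Suz12 covered 54.2% of all bases in Myc-ESCs. There, 12 of the 13 Myc-ESC H3K27me3 peaks overlapped Suz12, which held 94.6% of their bases. The highest-scoring one over the gene lay 3439 to 3712 bp after the start site in exon 2, with a score of 115.86.

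Six3, the forebrain and eye gene, was the member with the most Suz12 and the least H3K4me3. Suz12 covered 4519 bp of its window in LIF-ESCs against 4974 bp in Myc-ESCs, and 5.74% and 4.34% of genes with Suz12 had as much. Its Suz12 domain measured 19235 bp in LIF-ESCs against 21559 bp in Myc-ESCs. By length it ranked 14 of 4469 domains in LIF-ESCs and 29 of 5311 in Myc-ESCs. The start site itself lay under a Suz12 peak in the Myc-ESC list alone, whereas the LIF-ESC peaks ended 30 bp before it and resumed 444 bp after it. Among all genes with Suz12 at the window, a start site was under a peak at 39.5% in LIF-ESCs and 48.9% in Myc-ESCs.

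H3K4me3 covered 0 bp of the Six3 window in LIF-ESCs, where the nearest peak lay 24722 bp away. In Myc-ESCs it covered 855 bp, at a peak that ran from 4289 bp to 1646 bp before the start site. This peak had a score of 168.23, rank 20679 of 30345 in its list, and it covered the start site of Six3os1, a noncoding RNA gene that begins 2438 bp upstream on the opposite strand. Over the Six3os1 window H3K4me3 covered 0 bp in LIF-ESCs against 2644 bp in Myc-ESCs, and over the Six3 body it covered 0 bp in both. A window of 1000 bp therefore leaves Six3 with no H3K4me3. Of the 210 genes that had Suz12 in both cultures and no H3K4me3 in LIF-ESCs, 139, or 66.2%, had H3K4me3 in Myc-ESCs. H3K27me3 covered 0 bp of the Six3 window in LIF-ESCs against 1347 bp in Myc-ESCs, in 8 peaks of 130 to 219 bp. The median peak of that list was 162 bp long. Of the genes with the mark, 10.3% had as much. Of the 17 Myc-ESC H3K27me3 peaks within 10000 bp, 16 overlapped Suz12, which held 95.5% of their bases. In Myc-ESCs Suz12 covered 79.9% of all bases in that span.

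The H3K27me3 peaks of Six2 and Six3 scored low. Within their windows the highest scores were 79.8 at Six2 and 99.67 at Six3, and with only scores of at least 100 neither gene had a peak in its window. The same was true when the Myc-ESC list was limited to its 3120 highest-scoring peaks, the length of the LIF-ESC list. Then H3K27me3 was called in Myc-ESCs only at 0 of the 5 genes. There were 2026 genes that had Suz12 in the lists of both cultures but lacked H3K27me3 in LIF-ESCs. Of these, 1305, or 64.4%, had H3K27me3 in Myc-ESCs, so Six2 and Six3 were among the majority of such genes.

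LIF-ESC H3K27me3 peaks were also few on the chromosome that carries both genes. Chromosome 17 had 34 of the 3120 LIF-ESC peaks and 302 of the 16717 Myc-ESC peaks, and the nearest LIF-ESC peak was 2718586 bp from Six2 and 2786006 bp from Six3. Of the 92 genes on chromosome 17 with Suz12 at the start site in both cultures, 14 (15.2%) had H3K27me3 in LIF-ESCs and 57 (62.0%) in Myc-ESCs. Over all chromosomes the shares were 28.2% and 72.0% of 2822 genes. Between the 20 chromosomes with at least 20 such genes, the LIF-ESC share ran from 4.92% (X) to 56.6% (8) and the Myc-ESC share from 39.3% to 80.1%. The part of these differences between chromosomes in the H3K27me3 of Six2 and Six3 was not tested. On chromosome 12, which carries Six6 and Six4, the shares were 24.4% and 74.0% of 123 genes.

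**Figure D2:**
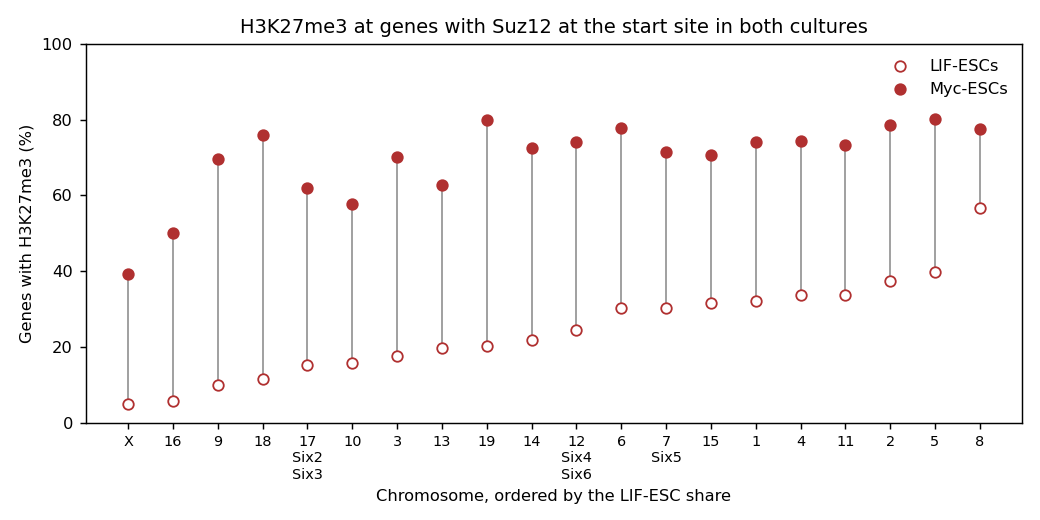
Share (%) of genes with an H3K27me3 peak at the start site among genes with Suz12 there in both cultures, for 20 chromosomes, with open points for LIF-ESCs and filled points for Myc-ESCs. Chromosome 17, with Six2 and Six3, lies toward the low end in LIF-ESCs (15.2%), and the Myc-ESC point is above the LIF-ESC point on every chromosome drawn.

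Six6, a gene of the eye and pituitary, was the member with peaks of all 3 antibodies in both cultures, a state shared by 621 genes or 2.37% of all. H3K4me3 covered 2602 bp of its window in LIF-ESCs against 4007 bp in Myc-ESCs, 1.54 times as much, and 5.23% of genes with H3K4me3 differed by at least as much in this direction. The peak grew from 2602 to 4473 bp in length, mostly into the gene, from 1288 to 2966 bp after the start site. A separate H3K4me3 peak sat over the end of the gene, from 4521 to 7130 bp in LIF-ESCs and from 4258 to 7469 bp in Myc-ESCs. Suz12 covered 3607 bp and 3661 bp of the window, a difference of 54 bp, and its peak covered the start site in both cultures. The joined Suz12 domain of Six6 was the shorter in Myc-ESCs, with 5528 bp against 6325 bp in LIF-ESCs, unlike those of Six2 and Six3. The join left out further Suz12 peaks, which began 4401 bp after the start site in LIF-ESCs against 3805 bp in Myc-ESCs. Bases covered went the other way. Within 10000 bp of the start site Suz12 covered 5227 bp in LIF-ESCs against 6550 bp in Myc-ESCs, and over the gene body 3469 bp against 3732 bp.

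H3K27me3 at Six6 covered 152 bp of the window in LIF-ESCs against 811 bp in Myc-ESCs, 5.34 times as much. The LIF-ESC value was a single peak 2364 to 2213 bp before the start site with a score of 57.66, which is lost at a score of at least 100 and lies outside a window of 1000 bp. In Myc-ESCs the 6 peaks over the body covered 1866 bp of 5018 bp, or 37.2%, against 317 bp, or 6.32%, in LIF-ESCs. The strongest, 641 bp long with a score of 246.44, lay 3786 to 4426 bp after the start site in exon 2 and ranked 609 of 16717. Of the 11 Myc-ESC H3K27me3 peaks within 10000 bp, 7 overlapped Suz12, which held 57.8% of their bases, a lower share than at Six2 and Six3. Suz12 in Myc-ESCs also covered less of all bases in that span at Six6 (32.7%) than at Six2 (54.2%) and Six3 (79.9%). When the lists were equal in length, Six6 had H3K27me3 in both cultures, but the Myc-ESC coverage of the window fell to 331 bp beside 152 bp, and the difference over the body fell from 1549 to 748 bp.

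Six5, the neighbour of Dmpk, carried a broad H3K4me3 peak and no H3K27me3. H3K4me3 covered 4739 bp of the window in LIF-ESCs and all 5001 bp in Myc-ESCs. The peak was 5647 bp long in LIF-ESCs against 6234 bp in Myc-ESCs, of which 2686 and 2850 bp lay over Dmpk. H3K27me3 covered 0 bp in both cultures, with the nearest peak 22387 and 21024 bp from the start site. Suz12 covered 0 bp in LIF-ESCs against 1068 bp in Myc-ESCs, in 4 peaks that began 24 bp after the start site and ended at 1309 bp, in exon 1 and intron 1. The scores were 107.25, 53.11, 141.15 and 128.03. The highest ranked 5032 of 13907, and 3 of the 4 peaks reached a score of 100. All 1068 bp lay under the H3K4me3 peak.

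Of the 12924 genes that, like Six5, had H3K4me3 in both cultures and neither Polycomb mark in LIF-ESCs, 869 (6.72%) had Suz12 in Myc-ESCs. Among these 869 genes the median Suz12 coverage was 447 bp, and 19.8% had at least as much as Six5. Like Six5, 548 of them (63.1%) had no H3K27me3 peak in Myc-ESCs. The Suz12 bases of Six5 held 9.46 CG dinucleotides per 100 bp, against 1.88 in the remaining bases within 10000 bp of the start site. The Myc-ESC values under and outside Suz12 were 3.80 and 2.19 per 100 bp at Six2, 3.61 and 1.57 at Six3, and 3.95 and 0.989 at Six6. In each of these 4 genes the bases under Suz12 peaks thus held more CG dinucleotides on average than those outside. The densest stretch was not always included. At Six2 the promoter, with 26 CG dinucleotides in 250 bases, had only 7 bases under Suz12 in Myc-ESCs.

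Six4, which acts in muscle and sensory organs, carried H3K4me3 alone, as did 45.2% of all genes in both cultures. H3K4me3 covered 3981 bp of the 5181 bp window in LIF-ESCs against 4107 bp in Myc-ESCs, a difference of 126 bp, near the median of 150 bp. The peak had a score of 3100, the ceiling of the scale, and it was longer in Myc-ESCs (7723 bp, length rank 392 of 30345) than in LIF-ESCs (5387 bp, rank 2266 of 32469). Most of the added length lay in the gene, where the peak ended 4086 bp after the upstream start site in LIF-ESCs against 6296 bp in Myc-ESCs. On the other side it began 1300 bp and 1426 bp before that start site, which accounts for the 126 bp in the window. A second, low-scoring H3K4me3 peak covered part of the gene body, with a score of 170.04 in the LIF-ESC list and 79.12 in the Myc-ESC list. These scores cannot be compared between the lists, since depth is unknown. Together the peaks covered 6666 bp (48.2%) of the body in LIF-ESCs against 9499 bp (68.7%) in Myc-ESCs. With only scores of at least 100 the Myc-ESC value fell to 6297 bp, below the LIF-ESC value, which stayed at 6666 bp. No Suz12 or H3K27me3 peak lay within 10000 bp, and the nearest were 58279 and 60077 bp away for Suz12, and 70515 and 61445 bp for H3K27me3, in LIF-ESCs and Myc-ESCs.

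The Polycomb domains of Six3 and Six2 were separate. The start sites lie 67420 bp apart. The facing ends of the genes lie 58076 bp apart. In the inner 38076 bp, at least 10000 bp from either gene, H3K27me3 covered 0 bp in both cultures and Suz12 covered 419 bp in LIF-ESCs against 0 bp in Myc-ESCs. An H3K4me3 peak lay there in both cultures, with 1381 bp in LIF-ESCs against 2318 bp in Myc-ESCs.

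**Figure D3:**
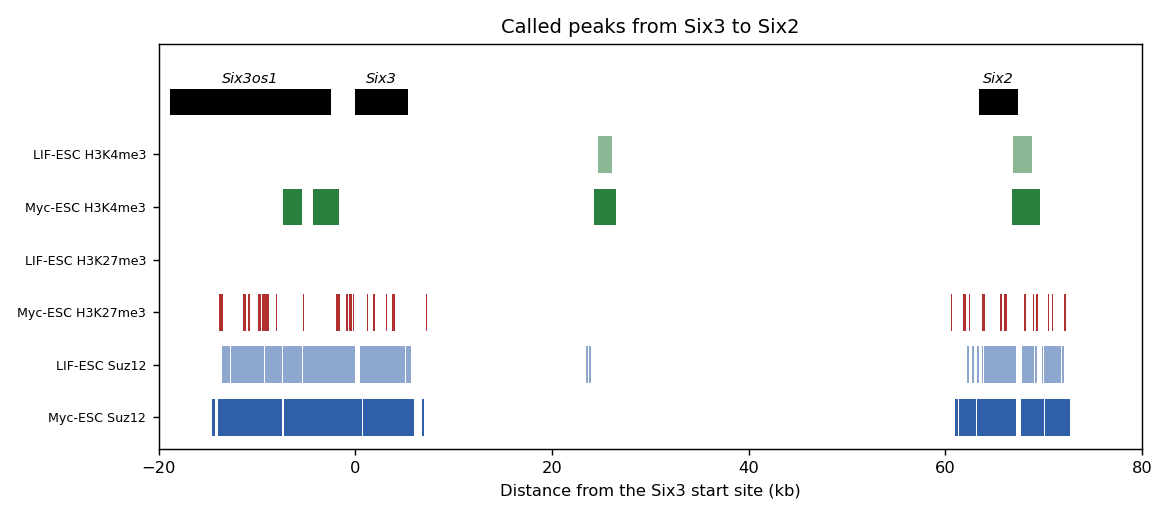
Called peaks from 20 kb before the Six3 start site to 80 kb after it, with genes in black and 1 row for each culture and antibody. Suz12 forms a broad block over Six3 and Six3os1 and a shorter one over Six2 in both cultures, with an H3K4me3 peak between them.

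Neighbouring genes outside the family were read in the same way. Mnat1, whose start site lies 10292 bp from that of Six4, had H3K4me3 and no Polycomb peak in either culture, like Six4. On the downstream side of Six5, the start site of Bhmg1 lies 23800 bp from that of Six5. Dmpk, on the upstream side, is nearer and ends 722 bp before Six5. Bhmg1 had 595 bp of H3K27me3 in LIF-ESCs against 1220 bp in Myc-ESCs, where Six5 had 0, and 221 bp of Suz12 in Myc-ESCs only. On the upstream side of Six6, 4930447C04Rik (22117 bp) had H3K4me3 in both cultures, no Suz12, and 150 bp of H3K27me3 in LIF-ESCs against 0 bp in Myc-ESCs.

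A list of 18 genes that work with or beside these proteins (Eya cofactors, Dach corepressors, and eye, kidney and muscle regulators) was read for the same marks. H3K4me3 was called at 14 of them in LIF-ESCs and 15 in Myc-ESCs, against 62.2% and 63.3% of all genes. Suz12 was called at 13 and 14, against 12.1% and 14.6%, and H3K27me3 at 7 and 12, against 3.82% and 10.7%. The order of the 3 marks was that of all genes. H3K27me3 was called in Myc-ESCs only at 5 of the 18 (7.65% of all genes). H3K4me3 (2.35%) and Suz12 (3.82%) were called in Myc-ESCs only at 1 each, while 0 had a peak in LIF-ESCs only. All 6 genes of the eye field and retina had Suz12 in both cultures, as did 2822 of all 26180 genes. Lhx2, a selector gene of the eye field, had 937 bp of H3K27me3 in LIF-ESCs against 3665 bp in Myc-ESCs over its start sites. Pax6, the eye master regulator, had 192 and 2307 bp. Otx2, a forebrain regulator, went the other way, with 403 bp in LIF-ESCs against 122 bp in Myc-ESCs. Gdnf, the ligand that induces ureteric budding, had 0 and 2258 bp. These genes have several start sites and larger windows than the members. The windows measured 10002 bp at Lhx2, 15388 bp at Pax6, 9911 bp at Otx2 and 10503 bp at Gdnf. Of the cofactors, Eya4 had Suz12 in both cultures (2200 and 3298 bp) and H3K27me3 in Myc-ESCs only (567 bp), whereas Eya3 had H3K4me3 alone. Suz12 coverage was lower in Myc-ESCs at some of the 18 genes, such as Wt1 (3746 and 1834 bp), and higher at others. Its median over the 18 was 2245 bp in LIF-ESCs against 2217.5 bp in Myc-ESCs. The muscle genes Myf5 and Myog had no peak of any antibody at the start site in either culture.

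Genes with start-site coverage most like that of each member were found by the sum of the absolute differences in covered bases over the 6 lists. Six2 was nearest to Cyp26a1 (980 bp in all), an enzyme that degrades retinoic acid, followed by the homeobox genes Evx1 (1379 bp) and Hmx3 (1500 bp). Among the 3 nearest to Six3 was the homeobox gene Uncx (1139 bp), which likewise had H3K4me3 in Myc-ESCs only (787 bp). Unlike Six3, Uncx had H3K27me3 in LIF-ESCs (590 bp). Hoxc9 (1350 bp), also among the 3, had 0 bp of H3K4me3 in both cultures. Six6 was nearest to Mdga2 (1069 bp), and the homeobox gene Hoxb4 was also among its 3 nearest (1350 bp). Six5 was close to Lrrn2 (382 bp), with 1062 bp of Suz12 in Myc-ESCs and 0 in LIF-ESCs. Six4 had far closer matches, such as Uqcc1 (16 bp). Between members the nearest pairs were Six4 and Six5 (2720 bp) and Six2 and Six6 (3280 bp), while Six3 was 5387 bp from Six2.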

How the data were processed

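ChIP-sequencing peaks of H3K4me3, H3K27me3 and Suz12 were read for LIF-ESCs and Myc-ESCs. According to the methods and the submitters' processing notes, the authors aligned reads to GRCm38 with Bowtie2 2.2.3, kept uniquely mapped reads with at most 2 mismatches and called peaks with MACS 1.4.2 at default settings. The deposited score of each peak is a p-value on a log scale that grows with depth and has a ceiling, so scores were ranked only within a list. A fixed cut at a score of at least 100 was nevertheless applied to the lists of both cultures as an alternative. Differences between cultures at that cut can therefore also reflect depth. Whether the 2 libraries behind a list were pooled is not given in the sources used here, and depth is unknown.

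Start sites were those of 45755 curated RefSeq transcripts (26180 symbols, 21 chromosomes), and a gene counted as marked if at least 1 bp of a peak fell within 2500 bp of one of its start sites. The body is the span of the curated transcripts. Domains are peaks joined over gaps of up to 1000 bp. Intervals were compared in Python 3.11.15 with pandas 2.3.3 and numpy 2.4.6, with code tested on simulated data. Sequences were read with pysam 0.24.0 and figures drawn with matplotlib 3.10.9. No test was made, since each culture and antibody has 1 list.

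Named were all 5 members, neighbouring genes, a network list of 18 genes, and for each member the 3 protein-coding genes with the nearest coverage. Some genes are not reported here. Members and lists were chosen with earlier results of these data known, and the pluripotency genes, Dmpk and the chromosome counts after the files were seen. As alternatives, only scores of at least 100 were kept, lists were made equal in length, windows of 1000 and 5000 bp or the start of the whole gene were used, and at least 100 bp had to be covered. Coordinates count from 1 in GRCm38.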

Additional observations from a re-analysis of the deposited data

How the results depend on the processing

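The 12 counts of members (marked in each list, or marked in 1 culture only) were recomputed under 6 alternatives, and 65 of the 72 values stayed within 1.5 times of the reported count. Among the 65 are the counts in LIF-ESCs only, which were 0 under every setting. At a score of at least 100, H3K27me3 was called at 0 genes in LIF-ESCs and at 1 (Six6) in Myc-ESCs, and the count in Myc-ESCs only was 1. With lists of equal length, H3K27me3 was called at 1 gene in Myc-ESCs (Six6) and at 0 in Myc-ESCs only. With a window of 1000 bp, H3K27me3 was called at 0 genes in LIF-ESCs, and H3K4me3 in Myc-ESCs only at 0 genes. H3K27me3 in Myc-ESCs only then rose from 2 to 3 genes, as Six6 joined Six2 and Six3. The stricter settings keep fewer peaks and the narrower window fewer bases. All Suz12 counts and the H3K4me3 counts per list stayed within 1.5 times under every alternative. Of 60 recomputed differences between the cultures in bases covered at the start-site windows, 52 kept their sign, 8 became 0 and 0 reversed. Over the gene bodies, 19 of 22 kept their sign, 2 became 0 and 1 reversed. This was H3K4me3 at Six4, where Myc-ESCs minus LIF-ESCs went from 2833 to -369 bp at a score of at least 100. The Myc-ESC peak with a score of 79.12 drops out there, while the LIF-ESC peak with a score of 170.04 stays. Whether unlike depth of the lists accounts for this reversal was not tested. With 1 list per culture and antibody and no read counts, none of these values has a replicate error, and a missing peak may reflect depth or enrichment, which was not tested. No paired analysis was possible because the result comes from no test.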
